A study of Mus musculus with 40 samples.

Results

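CL-316,243 (CL), a selective agonist of the β3-adrenergic receptor, was compared with saline in brown adipose tissue (BAT) of chow-fed mice. The libraries were taken by their labels, 5 labelled Chow CL and 5 labelled Chow Saline, which make up 10 of the 40 libraries of the series, and all genes were considered. Each library came from 1 mouse and held poly(A) RNA of BAT. The mice were labelled Wildtype. According to the methods of the study they were male control littermates of I-3BO mice, 15 weeks old and housed at 29 °C, which means that a mouse carried either the unrecombined *Gpr3* TTG allele or the *Ucp1*-CreERT2 transgene, and the labels do not say which mouse carried which. CL was given daily at 1 mg/kg and saline daily at 10 µL/g, in both groups for 9 consecutive days, and BAT was taken the day after the final injection. The question was what repeated β3-adrenergic stimulation changes in BAT of mice kept at thermoneutrality.

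Brown adipocytes dissipate energy as heat. Noradrenaline or a β3 agonist acts on Gs-coupled receptors and raises cAMP, which activates protein kinase A, triggers lipolysis and increases transcription of *Ucp1*, the gene of the mitochondrial uncoupling protein. Long-lasting stimulation is known to raise fatty acid synthesis and fatty acid oxidation together, along with mitochondrial content, and repeated receptor activation is known to be followed by desensitization.

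The 10 libraries held 7954684 to 15260516 counts over 20295 genes. A floor of 3 counts was taken as the smallest level that can be shown. It lay between 0.216 and 0.356 CPM, which are counts scaled to a common library size with TMM factors, and it covers counting error only. The quasi-likelihood test of edgeR was applied to 13277 genes, and p-values were adjusted over all of them by the Benjamini-Hochberg method. The spread behind the edgeR p-values was estimated over all 40 libraries with 1 mean per group, so it is not that of these 10 libraries alone. A gene is called induced or reduced at a log2 fold change above 1 or below -1 with an adjusted p under 0.05, and is said to have risen or fallen where the adjusted p alone was under 0.05. In a fit to the 10 libraries alone, the edgeR adjusted p was 0.00394 for *Ucp1*, 0.0565 for *Nr4a1*, 0.0997 for *Adcy5* and 0.170 for *Sik1*, and *Gpr3* and *Pla2g2e* were not tested. That fit tested 120 of the induced genes and called 103. Errors of levels are SD over the 5 mice of a group. The smallest p that an exact permutation test can give with 5 mice against 5 is 0.00794. Fewer cells of a type and less RNA per cell cannot be told apart in bulk tissue.

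CL induced 149 genes and reduced 193. These were 1.12% and 1.45% of the genes tested. Higher levels at the adjusted p alone were found for 1216 genes (9.16%) and lower levels for 814 (6.13%), most of them by less than a log2 fold change of 1 in either direction. All 5 CL mice lay above all 5 saline mice for 781 genes (5.88%) and below them for 467 (3.52%). Of the induced genes 94 separated the groups in this way, and for 134 at least 4 CL mice exceeded every saline mouse. The median over the tested genes was a log2 fold change of -0.01. When only library totals were used for scaling, without TMM factors, this median was -0.15, 98 genes were induced and 288 reduced, and the induced share of called genes fell from 43.6% to 25.4%.

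Differences within the groups touch many results below. Saline replicates 1, 4 and 5 held more skeletal muscle transcripts (3649 to 6928 CPM summed over a list of marker genes) than saline replicates 2 and 3 or any CL mouse (1039 to 2200.1 CPM). Chow CL replicate 5 responded less than the other CL mice. Saline replicate 1 stood above the other saline mice for heat shock and stress genes and for *Dio2*. Genes on a list of 139 tested skeletal muscle genes, or moving with that list in the 30 libraries of the other groups, account for 85 of the 193 reduced genes and are described in a section of their own. The remaining 108 reduced genes and the 149 induced genes are described by function. Counts of list members are to be read beside the shares of all tested genes. Of these 9.16% rose, 6.13% fell, 5.88% had all CL mice above all saline mice and 3.52% had all CL mice below them.

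**Figure D1:**
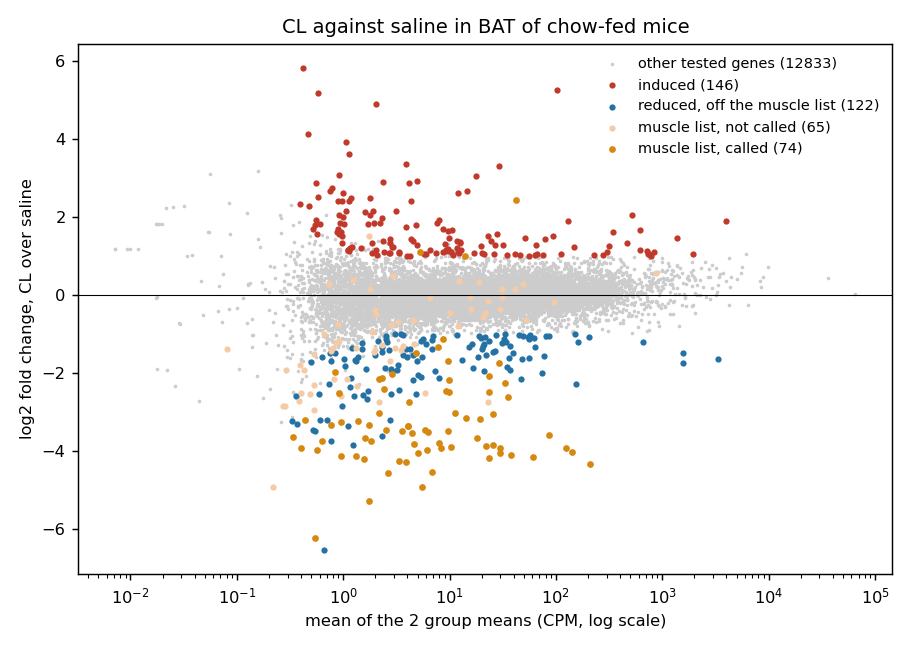
Log2 fold change of CL over saline (vertical axis) against the mean of the group means in CPM (horizontal axis, log scale), with 1 point per tested gene. Muscle list genes that were called (orange) sit mostly below -2, while induced genes (red) and reduced genes off the list (blue, including those that follow it) mostly lie within 3 on the log2 scale.

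Genes of thermogenesis that passed the test were higher in CL mice. Of 28 tested members of the thermogenesis list 10 rose and none fell, with a median log2 fold change of 0.31, and 5 were induced. *Ucp1* (RefSeq NM_009463, mm9 chromosome 8, 85814247 to 85822355, plus strand) measured 1865, 1731, 1267, 1690.1 and 1775 CPM in saline replicates 1 to 5 and 6761, 7660.4, 5943, 8986 and 1644 CPM in CL replicates 1 to 5. CL replicates 1 to 4 were all above the saline mice, and CL replicate 5 lay inside the saline range. The mean rose 3.72-fold (log2 fold change 1.90, standard error 0.27, edgeR adjusted p = 5.66e-06; exact permutation test, two-sided, p = 0.0397). Without CL replicate 5 the log2 fold change was 2.14.

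*Elovl3* (RefSeq NM_007703, mm9 chromosome 19, 46206389 to 46210184, plus strand), a fatty acid elongase long used as a marker of recruited brown fat, had the largest log2 fold change among induced genes with a mean of at least 2 CPM in CL mice. Its level was 7.67, 0.334, 2.77, 6.70 and 8.08 CPM in the saline mice and 222, 265, 202, 212 and 102 CPM in the CL mice, so that the groups were separated by a wide gap even with CL replicate 5, the lowest of the CL mice (log2 fold change 5.28, standard error 0.46, edgeR adjusted p = 6.48e-10). *Bmp8b*, a secreted factor that sensitizes brown fat to sympathetic input, rose from 1.80 to 6.02 CPM (log2 fold change 1.75, edgeR adjusted p = 0.0409), and its call was lost without any 1 of 6 mice, saline replicates 1, 2, 3 or 5 or CL replicates 2 or 3. *Gyk*, glycerol kinase, rose from 50 to 102 CPM with CL replicate 5 inside the saline range (log2 fold change 1.04, edgeR adjusted p = 0.0267), and was not called without saline replicates 2 or 3 or CL replicates 3 or 4. *Gpr3*, the constitutively active Gs-coupled receptor that the study is about, was carried by CL replicate 3 at 9.15 CPM, and the other 9 mice did not exceed 0.711 CPM. Its call was lost without that mouse (log2 fold change 0.97, edgeR adjusted p = 0.382). The induced members of the list numbered 3 without saline replicate 2 or saline replicate 3, and 2 without CL replicate 3, the fit in which 6 members rose.

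*Dio2*, the deiodinase that makes active thyroid hormone and a classical cAMP target, was not called. Saline replicate 1 measured 85.4 CPM and the other saline mice 18.4, 19.4, 9.03 and 15.1 CPM, against 40.1, 24.5, 60.8, 91.8 and 27.8 CPM in the CL mice. The groups overlapped through that saline mouse alone (log2 fold change 0.75, edgeR adjusted p = 0.256). Without it *Dio2* was induced, with a log2 fold change of 1.66 (edgeR adjusted p = 0.00479). *Ppargc1a*, the coactivator of mitochondrial biogenesis, had 70.9, 57.6, 53.8, 62.8 and 75.2 CPM in saline mice and 74.5, 73.5, 66.6, 92.7 and 44.4 CPM in CL mice. The range of the CL mice enclosed that of the saline mice (log2 fold change 0.13, standard error 0.17, edgeR adjusted p = 0.656). Among members of the list that rose by less than the fold threshold were *Cox7a1*, a subunit of cytochrome c oxidase, from 201 to 365 CPM (log2 fold change 0.86) and *Letmd1* from 705 to 1270.4 CPM (log2 fold change 0.85), and for both all CL mice were above all saline mice. These examples of rises below the fold threshold, here and in the lists that follow, were picked after their values were seen.

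**Figure D2:**
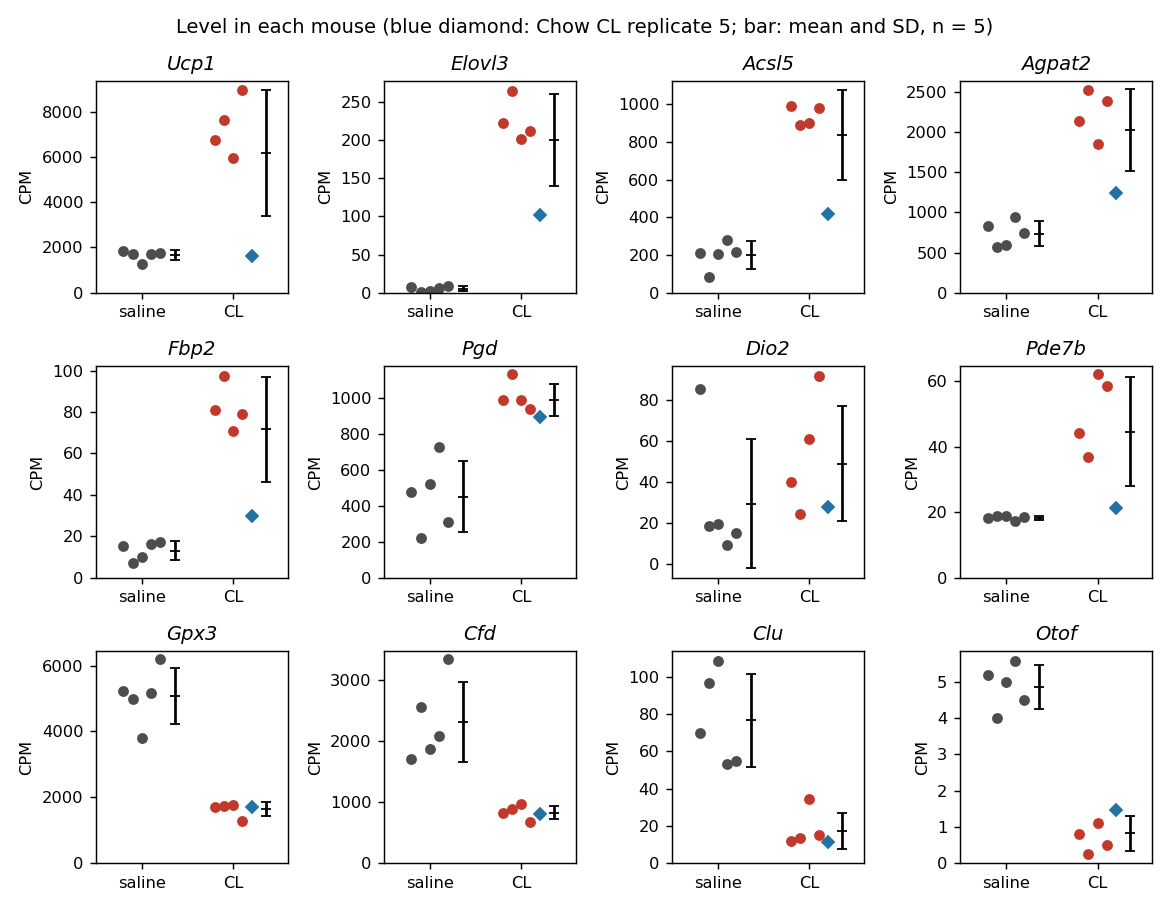
Level in CPM of 12 genes in each of the 5 saline mice (grey) and 5 CL mice (red circles, with replicate 5 as a blue diamond), with the mean and SD of each group beside the points. *Ucp1* in CL replicate 5 sits among the saline mice, while *Pgd*, *Gpx3* and *Cfd* in the same mouse sit with the other CL mice.

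cAMP acts on transcription through CREB, which binds the palindrome TGACGTCA or its shorter form TGACG. These letters were searched for on both strands of the RefSeq promoters (build GRCm38.p6, 250 bases before to 50 after the start) of the 15 induced genes with the largest log2 fold changes and of *Ucp1*, *Dio2* and *Ppargc1a*. The table held 16 of these 18 promoters, all but those of *Elovl3* and *Wfdc21*. The short form, which also lies within the palindrome, was present in 5 of the 16 (31.2%), those of *Gpr3*, *Tfr2*, *Ucp1*, *Dio2* and *Ppargc1a*, and in 20.8% of all 32851 promoters. Only *Gpr3* and *Tfr2* of these 5 are among the 15 most induced genes. *Ucp1*, *Dio2* and *Ppargc1a* were added by name and all matched, so the 31.2% is not a share of induced genes and shows no excess among them. The full palindrome was found in 1 of the 16, that of *Dio2*, and in 1.79% of all. A window of 30 bases, 5′ to 3′ on the strand of the gene with the match in capitals, is shown for 4 of them because they differ in response: *Ucp1* (chr8:83290189-83290218, plus strand, match beginning 147 bases before the start) and *Tfr2* (chr5:137570667-137570696, plus strand, 41 bases before) were induced, *Dio2* (chr12:90739115-90739144, minus strand, 95 bases before) was induced only without saline replicate 1, and *Ppargc1a* (chr5:51567757-51567786, minus strand, 49 bases before, reverse complement of the short form) was not called. A match describes these letters and is not evidence of binding.
Ucp1: gggctttgggagTGACGcgcggctgggagg
Tfr2: tcccccaacctgTGACGggaaccaagttgg
Dio2: ctctttctcaaTGACGTCAagatctttagc
Ppargc1a: ggtgccctcccaCGTCActgagctccagtg

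Some genes of fatty acid synthesis rose. Of 36 tested members of the synthesis and elongation list 12 rose, 3 fell and 21 did not pass the test (median log2 fold change 0.47), and 4 were induced. *Elovl6*, which elongates palmitate, measured 1397, 615, 1554, 1913 and 864 CPM in saline mice and 2188, 2926, 2674, 2384 and 2965 CPM in CL mice. All CL mice exceeded all saline mice, and CL replicate 5 was the highest of all (log2 fold change 1.05, standard error 0.28, edgeR adjusted p = 0.00861). *Pgd*, an enzyme of the pentose phosphate pathway that supplies NADPH, rose from 450.3 ± 196 CPM to 986 ± 89.2 CPM (SD, n = 5), again without overlap (log2 fold change 1.13). Without saline replicate 2, which was low for both genes, neither was called, and *Elovl6* was not called without saline replicate 5 either. *Elovl4*, the elongase of very long chains, went from 0.557 ± 0.300 CPM to 4.21 ± 1.25 CPM (SD, n = 5; log2 fold change 2.90). *Thrsp*, a lipogenic nuclear protein, rose from 2887 to 5591 CPM (log2 fold change 0.95). *Fasn*, fatty acid synthase, showed 30732, 11113, 33113, 46168 and 30748 CPM in saline and 41354, 45266, 46236, 40763 and 33285 CPM in CL mice. Saline replicate 2 stood low, the remaining values overlapped and no difference was called (log2 fold change 0.45, edgeR adjusted p = 0.571). *Fads3*, a desaturase family member, was reduced, from 72.6 to 23.3 CPM (log2 fold change -1.64), with 3 of the 5 CL mice below every saline mouse. Without CL replicate 5, 6 members of the list fell.

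Esterification and uptake followed in part. Of 21 tested genes of triglyceride synthesis and glycerol handling 7 rose and 1 fell (median 0.22), with *Agpat2*, *Mogat1* and *Gyk* induced. *Agpat2*, whose product makes phosphatidic acid for triglycerides, had 827, 573, 594, 942 and 744 CPM in saline mice and 2143, 2524, 1850.4, 2386 and 1236 CPM in CL mice. The groups did not overlap, and CL replicate 5 was the lowest CL mouse (log2 fold change 1.46, standard error 0.25, edgeR adjusted p = 7.63e-05). *Mogat1*, a monoacylglycerol acyltransferase, rose from 6.47 to 17.0 CPM (log2 fold change 1.39). The 7 rising genes became 4 without saline replicate 1 or 3, 3 without CL replicate 3 or 4, and 11 without CL replicate 5. Among 27 tested genes of fatty acid uptake and activation 7 rose and 3 fell (median 0.06), and 2 were induced. *Acsl5*, an acyl-CoA synthetase, measured 209, 81.3, 208, 282 and 217 CPM in saline and 994, 889.7, 902, 979.9 and 419 CPM in CL mice, with CL replicate 5 between the saline mice and the other CL mice (log2 fold change 2.07, standard error 0.26, edgeR adjusted p = 8.39e-07). *Fabp5*, a fatty acid binding protein, rose from 27.0 to 56.2 CPM (log2 fold change 1.05) and passed the fold threshold only with saline replicates 1 and 2 included. *Lpl*, lipoprotein lipase, had 4204, 4807, 3272, 4110.4 and 4869 CPM in saline mice and 7073, 8660.1, 7183, 8208 and 3797 CPM in CL mice. CL replicates 1 to 4 were above all saline mice, while CL replicate 5 lay within the saline range, and the gene rose (log2 fold change 0.72, edgeR adjusted p = 0.00195). The 3 falling members, *Lrp1*, *Acsm3* and *Gpihbp1*, were down to 1 in 7 of the fits that left out 1 mouse, those without saline replicates 2, 4 or 5 or CL replicates 1 to 4.

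Lipolysis genes moved in both directions. Of 22 tested members of the lipolysis and lipid droplet list 5 rose and 3 fell (median 0.06), none was induced, and the only reduced member, *Fitm1*, moves with skeletal muscle transcripts (r = 0.89 in the other groups) and lost its call without saline replicates 1 or 5 or CL replicate 4. *Pnpla2*, adipose triglyceride lipase, measured 4595 ± 592 CPM in saline and 3859.6 ± 223 CPM in CL mice (SD, n = 5; log2 fold change -0.25, standard error 0.10, edgeR adjusted p = 0.0683). *Lipe*, hormone-sensitive lipase, measured 2639 ± 308 CPM and 2534 ± 165 CPM (SD, n = 5; log2 fold change -0.06, standard error 0.09, edgeR adjusted p = 0.723). *Plin2*, a droplet coat protein, rose from 581 to 927 CPM (log2 fold change 0.67) while *Plin4*, another coat protein, fell from 1175 to 681 CPM (log2 fold change -0.79), both without overlap. The rising members were 3 without saline replicate 3.

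Many oxidation genes rose, most of them below the fold threshold. Of 33 tested genes of mitochondrial fatty acid oxidation 21 rose and 1, *Cpt1a*, fell (median 0.41). In 17 of the 33 all CL mice exceeded all saline mice, against 5.88% of all tested genes. *Acot11*, a thioesterase of brown fat, had 331, 168, 274, 509 and 211 CPM in saline mice and 1076, 1012, 1044, 1042 and 559 CPM in CL mice, and only CL replicate 5 came near the highest saline mouse (log2 fold change 1.66, standard error 0.33, edgeR adjusted p = 4.12e-04). *Slc25a20*, the carnitine-acylcarnitine carrier, rose from 472 ± 126 CPM to 987 ± 139 CPM (SD, n = 5; log2 fold change 1.07) and stayed under the fold threshold without saline replicate 2 or 3. *Etfdh*, which passes electrons from fatty acid oxidation to ubiquinone, rose from 681 to 1312 CPM (log2 fold change 0.95) and *Acadm*, the medium-chain dehydrogenase, from 1771 to 2879.7 CPM (log2 fold change 0.70). *Cpt1b*, the muscle-type carnitine palmitoyltransferase, was 93.5 ± 16.3 CPM in saline and 112 ± 10.3 CPM in CL mice (SD, n = 5; log2 fold change 0.26, edgeR adjusted p = 0.0946). Peroxisomal lipid oxidation had 13 rising and 1 falling gene of 29 (median 0.33). Its induced members were *Acot12*, at most 0.216 CPM and under the floor in each saline mouse and 1.67, 1.66, 2.96, 2.52 and 1.12 CPM in CL mice, and *Acaa1b*, a peroxisomal thiolase, from 27.4 to 75.5 CPM (log2 fold change 1.46), whose reads may be shared with its close paralog *Acaa1a*. The falling gene, *Abcd2*, a peroxisomal importer, went from 185 to 95.6 CPM (log2 fold change -0.95).

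Genes of the downstream mitochondrial pathways that passed the test were mostly higher. Of 21 tested genes of the tricarboxylic acid cycle 17 rose and none fell (median 0.39), and in each of the 17 all CL mice exceeded all saline mice, against 5.88% of all tested genes. *Idh1*, isocitrate dehydrogenase of the cytosol, was highest by fold (339, 277, 329, 382 and 279.6 CPM in saline, 542, 619, 583, 584 and 427 CPM in CL mice, log2 fold change 0.78). It is counted in the list although it is not an enzyme of the mitochondrial cycle itself. *Sdha*, a subunit of complex II, had 2886, 2468, 2732, 3223 and 3854 CPM in saline mice and 4744, 4210.0, 4325, 4536 and 4532 CPM in CL mice (log2 fold change 0.56), with CL replicate 5 level with the other CL mice. Catabolism of branched-chain amino acids had 14 rising genes of 21 and none falling (median 0.39), among them *Pcca* of the propionyl-CoA carboxylase, from 211 to 413 CPM (log2 fold change 0.97). The respiratory chain and ATP synthase had 34 rising genes of 83, 1 falling and 48 that did not pass the test (median 0.31). That falling gene was *Cox6a2*, the heart and skeletal muscle isoform, which moves with muscle transcripts (r = 0.94). Of 74 mitochondrial ribosomal protein genes 28 rose, none fell and 46 did not pass the test (median 0.27), and of 76 tested genes in the cytosolic ribosome list 1 rose and 5 fell (median -0.13), the fall being near the 6.13% of all tested genes. None of these genes except *Cox6a2* and *Rpl3l*, both reduced, passed the fold threshold. With library totals alone 19 respiratory chain genes and 18 mitochondrial ribosomal genes rose, and 18 cytosolic ribosomal genes fell. *Cox6a2* lost its call without saline replicate 1 or CL replicates 3, 4 or 5, and *Rpl3l* without saline replicates 1 or 5 or CL replicates 4 or 5. The falling cytosolic ribosomal genes were 2 without CL replicate 4 and 3 without saline replicates 1 or 5 or CL replicates 2 or 3. The rising respiratory chain genes were 21 without saline replicate 2 and 20 without saline replicate 3.

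**Figure D3:**
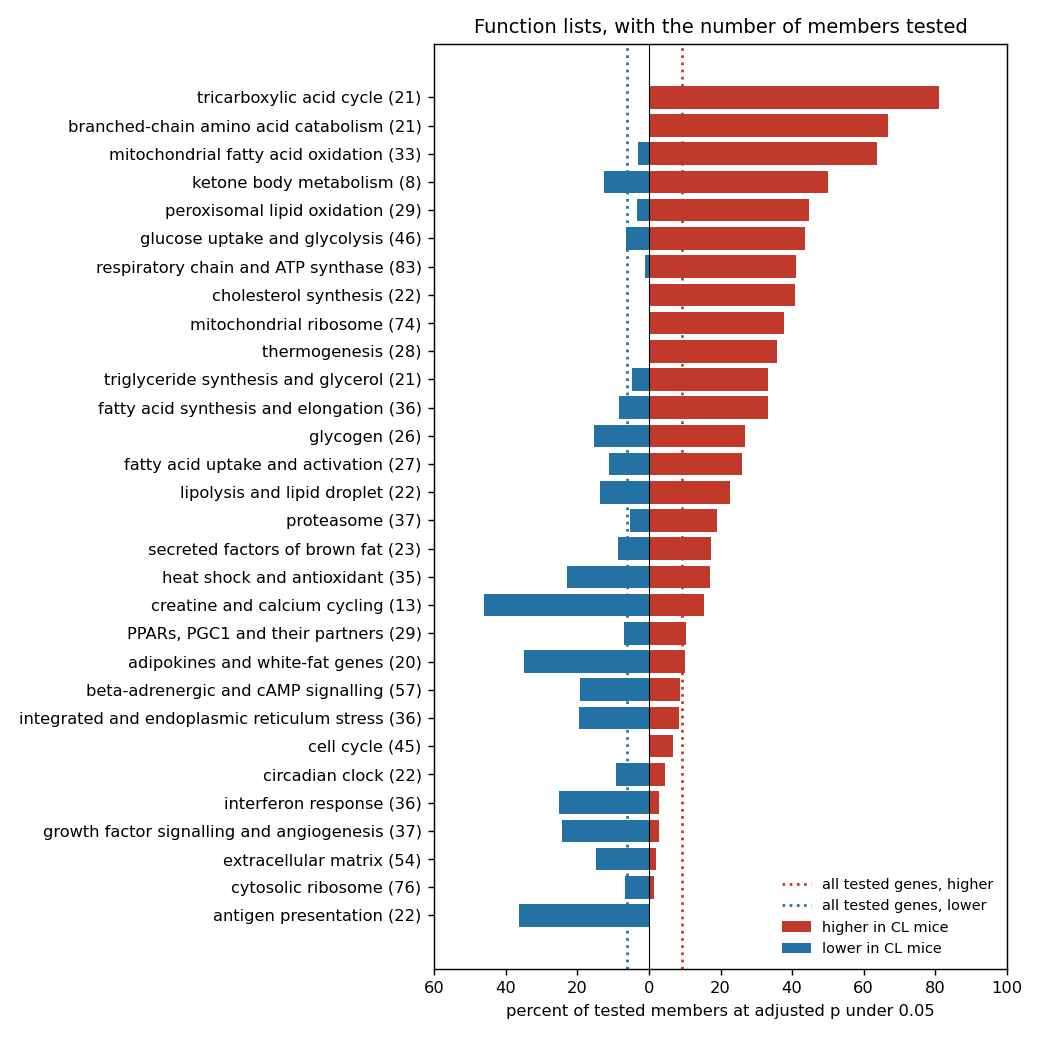
Percent of the tested members of each function list that were higher (red, to the right) or lower (blue, to the left) in CL mice at an adjusted p under 0.05, with the number tested in parentheses and dotted lines for all tested genes at 9.16% and 6.13%. The tricarboxylic acid cycle list lies farthest to the right with 17 of 21 genes, and antigen presentation has 8 of 22 lower and none higher.

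More genes of glucose metabolism rose than fell. Of 46 tested genes of glucose uptake and glycolysis 20 rose, 3 fell and 23 did not pass the test (median 0.43). The induced members were *Fbp2* and *Fbp1*, the fructose bisphosphatases. *Fbp2* (RefSeq NM_007994, mm9 chromosome 13, 62938245 to 62959730, minus strand) measured 15.2, 7.02, 9.83, 16.3 and 17.3 CPM in saline mice and 80.8, 97.6, 71.0, 79.3 and 29.9 CPM in CL mice, with all CL mice higher and CL replicate 5 lowest among them (log2 fold change 2.44, standard error 0.27, edgeR adjusted p = 6.01e-08). *Fbp2* is on the muscle list by its known tissue, yet its deviations did not follow that list (r = -0.10). *Fbp1* rose from 0.679 ± 0.386 CPM to 7.19 ± 3.56 CPM (SD, n = 5; log2 fold change 3.37). *Hk2*, hexokinase 2, rose from 506 to 983 CPM (log2 fold change 0.96) and *Ldha* from 1109.8 to 1812 CPM (log2 fold change 0.71). The falling members were *Pgam2* and *Eno3*, the muscle isoforms of their enzymes (r = 0.96 and 0.93 with the muscle list), and *Slc16a3*, a lactate transporter with r = 0.48 that was not called without saline replicate 1 or CL replicate 1. Without saline replicate 1 or CL replicate 3, 4 members of the list were induced. In the fit to the 10 libraries alone 2 members were induced, and 5 with the muscle level of each mouse added as a covariate. *Slc2a4*, the insulin-regulated glucose transporter, had 685 ± 77.4 CPM in saline and 841 ± 171 CPM in CL mice (SD, n = 5; log2 fold change 0.30, edgeR adjusted p = 0.278). Of 26 tested glycogen genes 7 rose, 4 fell and 15 did not pass the test (median 0.22). *Gys2*, the liver-type glycogen synthase, rose from 42.1 ± 8.03 CPM to 114 ± 28.9 CPM (SD, n = 5; log2 fold change 1.44) and *Ppp1r3b*, a glycogen-targeting phosphatase subunit, from 532 ± 86.2 CPM to 1154 ± 213 CPM (SD, n = 5; log2 fold change 1.12), both without overlap between groups. The 3 reduced glycogen genes, *Pygm*, *Ppp1r3a* and *Phkg1*, were those expressed in skeletal muscle (r = 0.97, 0.94 and 0.84), and 1 of them was left without saline replicate 1, CL replicate 2 or CL replicate 4.

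Sterol and ketone metabolism were smaller groups. Of 22 tested genes of cholesterol synthesis 9 rose and none fell (median 0.52), with *Fdps*, farnesyl diphosphate synthase, induced. *Fdps* had 14.3, 6.91, 13.0, 15.8 and 8.08 CPM in saline mice and 28.5, 22.6, 23.8, 27.4 and 37.2 CPM in CL mice, and the highest value belonged to CL replicate 5 (log2 fold change 1.27, standard error 0.21, edgeR adjusted p = 3.99e-05). In the fit to the 10 libraries alone 7 of the list rose, and 4 with the muscle level of each mouse added. Without saline replicate 1, saline replicate 4 or CL replicate 3, 4 of the list were induced, and without CL replicate 2 or 4, 2 were. Of 8 tested genes of ketone body metabolism 4 rose and 1 fell, and the rising genes were 2 without saline replicate 2 and 1 without saline replicate 3. *Aacs*, which activates acetoacetate for lipid synthesis, was induced from 380.0 to 846 CPM (log2 fold change 1.15).

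Genes of receptor and cAMP signalling were lower more often than higher. Of 57 tested members 5 rose, near the 9.16% of all tested genes, and 11 fell, against 6.13% of all tested genes (median -0.08). In the list 1 was induced and 5 were reduced. *Adrb3*, the receptor that CL acts on, had 514, 302, 357, 440.4 and 339 CPM in saline and 255, 249, 303, 282 and 366 CPM in CL mice. CL replicates 3 and 5 lay within the saline range, the other CL mice lay below it, and the difference did not pass the test (log2 fold change -0.42, standard error 0.21, edgeR adjusted p = 0.169). *Adrb1* stood at 64.1 to 45.1 CPM from saline to CL mice (log2 fold change -0.50, edgeR adjusted p = 0.0843). *Pde7b*, a cAMP phosphodiesterase, had 18.2, 18.7, 18.9, 17.3 and 18.5 CPM in saline and 44.2, 36.8, 62.4, 58.5 and 21.4 CPM in CL mice, with a narrow saline range that CL replicate 5 barely exceeded (log2 fold change 1.29, standard error 0.21, edgeR adjusted p = 4.82e-05). *Pkia*, the protein kinase A inhibitor, which is also on the muscle list, fell from 14.8 to 4.53 CPM without overlap (log2 fold change -1.69, not called without saline replicate 1 or CL replicate 3), and *Adcy5*, an adenylate cyclase, from 36.5 to 17.9 CPM (log2 fold change -1.03, edgeR adjusted p = 0.0348), a call lost without any 1 of 6 mice, saline replicates 1 or 5 or CL replicates 1, 2, 4 or 5. *Adcy3*, another adenylate cyclase, rose from 129.8 to 234 CPM in the whole group. Of the fits that left out 1 mouse, it passed the fold threshold only in that without CL replicate 5 (log2 fold change 1.05). It also passed in the fit to the 10 libraries with the muscle level of each mouse added as a covariate (log2 fold change 1.04, edgeR adjusted p = 0.0301). *Nr4a1*, a nuclear receptor and immediate early gene, and *Sik1*, a kinase induced by cAMP, were reduced, with a wide spread among the saline mice. *Nr4a1* measured 656, 125, 394, 46.4 and 49.4 CPM in saline mice and 26.1, 18.9, 123, 32.4 and 60.9 CPM in CL mice, and *Sik1* measured 189.5, 48.1, 102, 29.8 and 14.9 CPM and 25.1, 22.1, 47.8, 42.7 and 36.9 CPM in the same order. Saline replicates 1 and 3 were high for both genes, and saline replicates 4 and 5 did not exceed the highest CL mouse for either. The log2 fold change of *Nr4a1* was -2.28, and it was -1.56 without saline replicate 1 and -2.87 without CL replicate 3. *Sik1* was not called without saline replicates 1 or 3 or CL replicates 1 or 2. The 5 reduced members were 2 without saline replicate 1 and 3 without CL replicate 1 or 2, and the 11 falling members were 5 without saline replicate 1 or CL replicates 1 or 2 and 7 without CL replicates 3 or 4. The rising members were 3 without saline replicates 2 or 3 or CL replicates 1 or 4, and 8 without CL replicate 5.

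Secreted proteins and genes of white fat moved in both directions. Of 20 tested adipokine and white-fat genes 2 rose and 7 fell (median -0.49). *Cfd* (RefSeq NM_001291915, mm9 chromosome 10, 79353598 to 79355405, plus strand), adipsin, measured 1703, 2551, 1871, 2084 and 3336 CPM in saline mice and 816, 876, 970.1, 666 and 801 CPM in CL mice. No CL mouse reached the lowest saline mouse, and CL replicate 5 lay inside the range of the other CL mice (log2 fold change -1.48, standard error 0.32, edgeR adjusted p = 0.00125). *Nnat*, neuronatin, was reduced from 33.4 ± 19.1 CPM to 8.75 ± 2.06 CPM (SD, n = 5; log2 fold change -1.93). *Adipoq*, adiponectin, fell from 1378 ± 232 CPM to 993 ± 52.5 CPM (SD, n = 5; log2 fold change -0.47, edgeR adjusted p = 0.00830), with all CL mice lower. *Lep*, leptin, ranged from 45.4 to 240.5 CPM in saline and from 45.3 to 174 CPM in CL mice, and the difference was not called (log2 fold change -0.59, edgeR adjusted p = 0.506). *Apln*, apelin, was induced from 5.24 to 12.9 CPM (log2 fold change 1.32), though not without CL replicate 4. Among secreted factors of brown fat, *Rbp4*, the retinol binding protein, measured 60.1, 36.5, 65.1, 56.5 and 55.1 CPM in saline and 255, 278, 127, 242 and 122 CPM in CL mice. The groups were apart, and CL replicates 3 and 5 were the lowest of the CL mice (log2 fold change 1.90, standard error 0.20, edgeR adjusted p = 5.67e-08). *Pla2g2e*, a secreted phospholipase, had at most 0.223 CPM in a saline mouse, which is below 3 counts, and 4.52, 5.22, 3.69, 5.48 and 0.863 CPM in CL mice (log2 fold change 4.91, standard error 0.60, edgeR adjusted p = 4.73e-07). *Fgf9* rose from 1.04 to 2.66 CPM (log2 fold change 1.35). In the list 4 of 23 tested members rose and 2 fell, where 9.16% and 6.13% of all tested genes did. The 2 that fell included *Vegfb*, from 206 to 134 CPM (log2 fold change -0.61). The falling members were 1 without saline replicates 1, 3 or 4 or CL replicates 1, 2 or 4.

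Antioxidant genes included the most abundant reduced transcript. *Gpx3* (RefSeq NM_008161, mm9 chromosome 11, 54716356 to 54723884, plus strand), the secreted glutathione peroxidase, measured 5228, 4980.1, 3803, 5170.2 and 6194 CPM in saline and 1709, 1719, 1767, 1270.1 and 1716 CPM in CL mice. All CL mice were far below all saline mice, CL replicate 4 was the lowest, and CL replicate 5 lay inside the range of CL replicates 1 to 3 (log2 fold change -1.63, standard error 0.18, edgeR adjusted p = 6.16e-08). *Apoe*, the apolipoprotein of lipid transport, which is on none of the lists and was picked after its values were seen, showed the same order with 2024, 2028, 2077, 2275 and 3591 CPM in saline and 688, 736, 844, 631 and 662 CPM in CL mice (log2 fold change -1.75, edgeR adjusted p = 6.01e-08). *Gpx1* fell from 531 to 325 CPM (log2 fold change -0.71) and *Gstm1* from 103 to 61.3 CPM (log2 fold change -0.75), both without overlap. In all 6 of 35 tested heat shock and antioxidant genes rose and 8 fell (median -0.07), and the rising members were 3 without saline replicate 2 or 3. The near-identical heat shock genes *Hspa1a* and *Hspa1b*, whose reads cannot be assigned with certainty, were reduced and lost their call without saline replicate 1. *Hspa1a* was not called without CL replicate 1 either, nor *Hspa1b* without CL replicate 4. *Hspa1a* had 32.0, 1.23, 1.97, 0.507 and 1.87 CPM in saline and 0.491, 1.54, 1.29, 1.80 and 3.02 CPM in CL mice, and without saline replicate 1 its log2 fold change was 0.21 (edgeR adjusted p = 0.824). Of 36 tested genes of the integrated and endoplasmic reticulum stress responses 3 rose and 7 fell (median -0.08). *Phgdh*, the first enzyme of serine synthesis, was reduced from 8.16 ± 4.15 CPM to 1.97 ± 0.781 CPM (SD, n = 5; log2 fold change -2.05), with no overlap, while *Psph* and *Asns*, which also serve amino acid synthesis, rose (log2 fold changes 0.99 and 0.80). The reduced stress genes *Atf3*, a transcription factor, and *Chac1*, which degrades glutathione, lost their call without saline replicate 1 and also without CL replicate 4, and *Chac1* further without saline replicates 3 or 5 or any other CL mouse. Without saline replicate 1, 3 members of the list fell. Without CL replicates 1, 2 or 4 the falling members were 4.

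Immune, matrix and growth factor genes that passed the test were mostly lower. Of 36 tested interferon response genes 1 rose and 9 fell (median -0.49), of 22 antigen presentation genes none rose and 8 fell (median -0.45), of 54 extracellular matrix genes 1 rose and 8 fell (median -0.28), and of 37 growth factor and angiogenesis genes 1 rose and 9 fell (median -0.21). *H2-D1*, a class I histocompatibility gene, fell from 363 to 234 CPM (log2 fold change -0.63), *Bst2*, an interferon-induced antiviral gene, from 33.0 to 19.9 CPM (log2 fold change -0.73), and *Timp3*, an inhibitor of matrix proteases, from 379.6 to 243 CPM (log2 fold change -0.64), each with all CL mice below all saline mice. *Mx1*, an antiviral gene, and *Irs2* were the only reduced members of these lists, and *Mx1* lost its call without any 1 of 7 mice, all but saline replicates 1 and 4 and CL replicate 2. *Irs2*, the insulin receptor substrate, measured 257, 43.0, 68.2, 50.9 and 30.9 CPM in saline and 52.8, 14.6, 17.5, 40.9 and 53.3 CPM in CL mice, where saline replicate 1 stands apart, and was not called without that mouse, CL replicate 2 or CL replicate 3. The counts of falling genes depended on single mice. Without saline replicate 3 they were 1 for interferon, 2 for antigen presentation and 4 for matrix genes, and without CL replicate 4 they were 4, 3 and 4. Matrix genes that fell also numbered 4 without saline replicate 2 and 5 without CL replicate 2. Interferon genes that fell were 3 without CL replicate 1 and 5 without CL replicate 2, antigen presentation genes were 5 without saline replicate 2 and 3 without CL replicate 1 or 2, and growth factor genes were 5 without saline replicate 1, CL replicate 3 or CL replicate 4 and 3 without CL replicate 2. With library totals alone 15 interferon, 15 matrix and 15 growth factor genes fell, and with the muscle covariate 18 interferon and 14 matrix genes did.

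Markers of other cell types gave few calls. No tested member of the lists for macrophages (21 genes), B cells (7), T cells (6), granulocytes and mast cells (7), endothelium (16), smooth muscle and pericytes (13), fibroblasts and preadipocytes (13), Schwann cells and neurons (11) or erythrocytes (1) was induced or reduced. Over all tested genes 1.12% were induced and 1.45% reduced, so the absence of calls in such short lists says little about cell content. At the adjusted p alone none of these markers rose, and 1 macrophage, 2 endothelial and 1 fibroblast marker fell, against 6.13% of all tested genes. The summed level of the macrophage list ranged from 247 to 494 CPM in saline and from 199.8 to 575 CPM in CL mice, and that of the fibroblast list from 1806 to 3284 CPM and from 1439 to 1846 CPM. The fibroblast ranges overlapped only slightly, 1 fibroblast marker fell, none of the 13 was at 0 throughout, and their part in the lower matrix genes was not tested. Of 14 brown adipocyte markers 3 rose and 1 fell, with summed levels of 13083 to 18558 CPM in saline and 16922 to 25705 CPM in CL mice. *Cidea*, a lipid droplet protein of brown fat, had 1692, 1886, 1689.7, 1826 and 2655 CPM in saline and 2364, 2246, 2102, 2299.6 and 2592 CPM in CL mice (log2 fold change 0.25, edgeR adjusted p = 0.206), which shows brown adipocyte transcripts at high levels in all 10 libraries. Of 18 tested liver genes 2 were induced, *Hpx*, which did not exceed 2.06 CPM and whose call was lost without any 1 of 9 mice, and *Itih4*. *Itih4* measured 147 CPM in CL replicate 3 and at most 6.72 CPM in any other mouse, and without CL replicate 3 its log2 fold change was -0.56 (edgeR adjusted p = 0.546). *Alb*, the defining liver transcript, did not exceed 1.01 CPM, and 6 of the 19 liver genes had no counts in the 10 libraries. Only 1 of the 19 was not tested, so most of these 6 passed the filter through other groups and could not be called. The summed level of the liver list was 101 to 410 CPM in saline and 95.0 to 425 CPM in CL mice.

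Among the 15 induced genes of at least 2 CPM with the largest log2 fold changes, several lie outside the lists. *Slc25a34*, a mitochondrial carrier, measured 6.27, 3.79, 0.715, 1.22 and 14.3 CPM in saline and 22.3, 12.1, 45.3, 177 and 6.91 CPM in CL mice, where CL replicate 4 stood far above the rest and CL replicates 2 and 5 lay within the saline range (log2 fold change 3.31, edgeR adjusted p = 0.00146). Its log2 fold change was 2.02 without CL replicate 4 (edgeR adjusted p = 0.0415) and 4.19 without saline replicate 5. *Fndc5*, the precursor of irisin, had 1.30, 0.557, 0.715, 1.62 and 1.53 CPM in saline and 7.18, 5.93, 11.6, 17.4 and 1.81 CPM in CL mice, with CL replicate 5 just above the saline mice (log2 fold change 2.94). *Arhgef19*, a guanine nucleotide exchange factor, rose from 3.89 ± 1.13 CPM to 25.1 ± 6.64 CPM (SD, n = 5; log2 fold change 2.68, edgeR adjusted p = 6.41e-09). *Tfr2*, transferrin receptor 2, rose from 3.36 ± 0.601 CPM to 20.7 ± 7.90 CPM (SD, n = 5; log2 fold change 2.62, edgeR adjusted p = 6.01e-08). *Vipr2*, a Gs-coupled receptor for vasoactive intestinal peptide, rose from 0.533 to 3.06 CPM (log2 fold change 2.50), *Fam131c* from 0.953 to 7.33 CPM (2.87), *Tesc*, tescalcin, from 1.35 to 7.41 CPM (2.43) and *Ccdc144b* from 0.339 to 2.03 CPM (2.50). Without saline replicate 5 the log2 fold change of *Fam131c* was 3.57. In *Fndc5* and these 6 genes all CL mice exceeded all saline mice. *Wfdc21* rested on CL replicate 3, at 10.5 CPM against at most 1.78 CPM in the other mice, and lost its call without it.

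Among the 15 reduced genes of at least 2 CPM with the largest log2 fold changes outside the muscle group, *Otof*, otoferlin, measured 5.19, 4.01, 5.01, 5.58 and 4.51 CPM in saline and 0.786, 0.237, 1.11, 0.504 and 1.47 CPM in CL mice (log2 fold change -2.53, standard error 0.48, edgeR adjusted p = 3.25e-04). *Clu*, clusterin, measured 69.9, 96.9, 109, 53.1 and 54.8 CPM in saline and 12, 13.6, 34.3, 15.1 and 11.3 CPM in CL mice, and only CL replicate 3 was above 15.1 CPM among the CL mice (log2 fold change -2.15, standard error 0.28, edgeR adjusted p = 1.15e-06). Neither gene overlapped between the groups. *Cish*, an inhibitor of cytokine signalling, had 96.8, 133, 81.7, 145 and 127 CPM in saline and 17.0, 67.2, 43.0, 6.13 and 15 CPM in CL mice, a separation with a wide spread in the CL group (log2 fold change -1.99, edgeR adjusted p = 0.0343). Its call was lost without saline replicates 2 or 4 or CL replicates 1, 4 or 5. *Cdsn*, corneodesmosin, fell from 58.6 ± 28.6 CPM to 15.5 ± 4.53 CPM (SD, n = 5; log2 fold change -1.92, edgeR adjusted p = 2.11e-04), and *Nfe2l3*, a transcription factor related to NRF2, from 11.6 ± 5.83 CPM to 2.94 ± 2.19 CPM (SD, n = 5; log2 fold change -1.95, edgeR adjusted p = 4.05e-04). *Chrnb4*, a nicotinic receptor subunit, fell from 2.91 to 0.434 CPM with overlap of CL replicate 3 only (log2 fold change -2.66, and -3.80 without that mouse). *Egr3* and *Arc*, immediate early genes, were reduced (log2 fold changes -2.12 and -1.91) with CL replicate 5 the highest CL mouse for both, and without it the log2 fold change of *Egr3* was -3.14. *Rbm24* and *Rbfox1*, splicing factors expressed in muscle, just missed the limit that assigns genes to the muscle group (r = 0.75 and 0.75), and both lost their call without saline replicate 1.

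Skeletal muscle transcripts varied widely among the saline mice. The summed level of the 139 tested muscle list genes was 6928, 1248, 1039, 3649 and 5164 CPM in saline replicates 1 to 5 and 2200.1, 1818, 1863, 1747 and 1682 CPM in CL replicates 1 to 5. Saline replicates 2 and 3 lay below every CL mouse and saline replicates 1, 4 and 5 above every CL mouse, so the groups overlapped. Of the 139 genes 71 were reduced, 125 had a negative log2 fold change, and the median was -2.47. In 3 of the 139 all CL mice were below all saline mice, against 3.52% of all tested genes. *Myh4* (RefSeq NM_010855, mm9 chromosome 11, 67051314 to 67073949, plus strand), the fast myosin heavy chain, measured 952, 10.6, 2.41, 407 and 599 CPM in saline and 41.1, 19.3, 28.6, 6.63 and 3.19 CPM in CL mice (log2 fold change -4.33, standard error 1.19, edgeR adjusted p = 0.0108). *Atp2a1*, the calcium pump of fast muscle, measured 609.8, 14.6, 3.67, 252.1 and 457 CPM and 35.9, 17.2, 19.9, 5.69 and 3.88 CPM in the same order (log2 fold change -4.03, edgeR adjusted p = 0.0142). *Ckm*, muscle creatine kinase, measured 254, 4.90, 1.16, 122 and 188 CPM and 13.9, 7.83, 8.78, 1.15 and 1.21 CPM (log2 fold change -4.16, edgeR adjusted p = 0.00668). In all 3 genes saline replicates 2 and 3 lay below the highest CL mouse. Exact permutation of the mean CPM gave p = 0.143 for *Myh4*, 0.143 for *Atp2a1* and 0.135 for *Ckm* (two-sided). *Acta1* and *Ttn*, skeletal actin and titin, fell likewise (log2 fold changes -3.93 and -3.58), calls that were lost without saline replicate 1 or CL replicate 4. *Sln*, sarcolipin, was at 5.30 CPM in saline replicate 1, did not exceed 0.101 CPM in the other saline mice and had no count in any CL mouse.

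The size of this group depended on single mice. Without saline replicate 1 the muscle list had 28 reduced genes with a median of -1.75, and without CL replicate 4 it had 42. Of the 85 reduced genes on the list or following it, 30 were called without saline replicate 1 and 49 without CL replicate 4, and of the other 108 reduced genes 67 were called without CL replicate 4. Outside the list, 36 tested genes followed it with r above 0.8 across the 30 libraries of the other groups after group means were removed, which is a description over libraries of different depth, and 14 of these were among the reduced genes. With r above 0.7 the 14 became 23. The muscle level of each mouse was also added as a covariate in a fit to the 10 libraries, which tests fewer genes. Of the 108 reduced genes outside the muscle group that fit tested 92, of which 70 were called without the covariate and 61 with it, and of the 149 induced genes it tested 120, of which 103 were called without the covariate and 94 with it. The covariate was computed from the muscle list, so the values of the list and of the genes that follow it in that fit are set by its construction and are not read here. Of 13 tested genes of creatine and calcium cycling 2 rose and 6 fell (median -0.64), and all 6, *Sln*, *Ckmt2*, *Ckm*, *Atp2a1*, *Ryr1* and *Gamt*, are also on the muscle list. *Gamt*, which makes creatine and did not follow the list (r = 0.18), measured 13.9, 7.35, 11.4, 15.1 and 11.6 CPM in saline and 5.21, 7.11, 4.25, 5.48 and 5.52 CPM in CL mice without overlap (log2 fold change -1.11). A few listed genes rose. *Cox8b*, a cytochrome c oxidase subunit that brown fat shares with muscle, rose from 697 ± 171 CPM to 1042 ± 70.9 CPM (SD, n = 5; log2 fold change 0.58, edgeR adjusted p = 0.0186, r = 0.14). *Casq2* and *Myom3* were induced beside *Fbp2* (log2 fold changes 1.11 and 1.01).

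**Figure D4:**
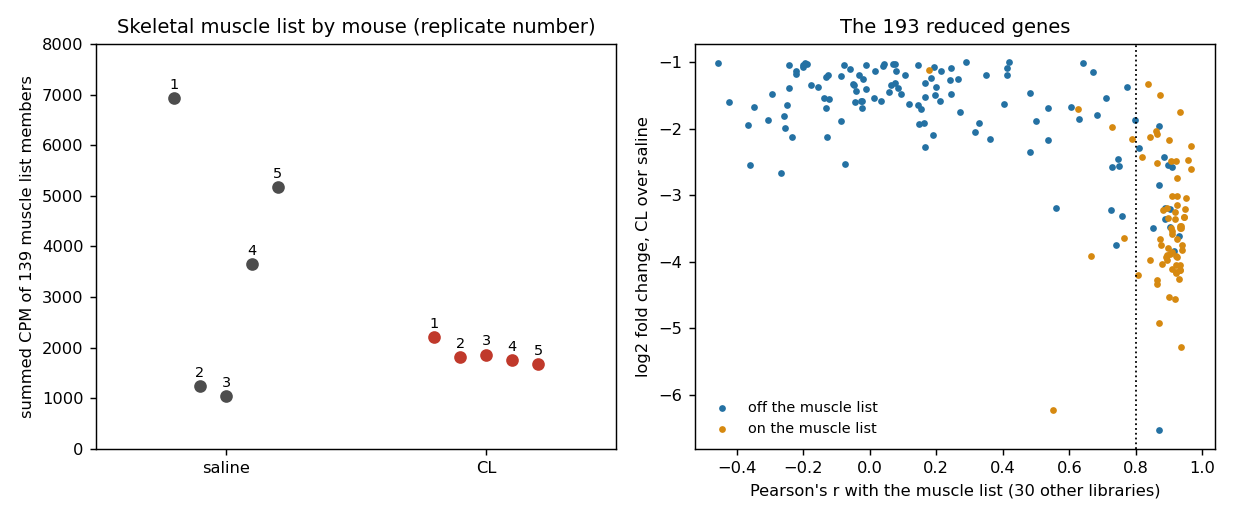
Left, summed CPM of the 139 muscle list genes in each mouse, numbered by replicate: saline replicates 1, 4 and 5 lie above and saline replicates 2 and 3 below all CL mice. Right, the 193 reduced genes by their correlation with the muscle list in 30 other libraries and their log2 fold change, where the list (orange) gathers beyond the dotted line at 0.8.

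Chow CL replicate 5 was the weakest responder. For each CL mouse the genes induced in the fit without it were taken, and the difference of that mouse from the saline mean was divided by that of the other 4 CL mice, on the scale of log2 CPM. The median over genes was 101% in CL replicate 1 (138 genes), 103% in CL replicate 2 (133 genes), 101% in CL replicate 3 (140 genes), 107% in CL replicate 4 (131 genes) and 54.4% in CL replicate 5 (191 genes). In CL replicate 5, 126 of the 191 genes (66.0%) were above all saline mice, against 86.4% to 92.0% in the other mice. The comparison was repeated with the 273 genes that CL induced on HFD (high-fat diet), of which 201 to 212 per mouse had a difference large enough for a percentage. The medians were then 104%, 105%, 113%, 119% and 59.0% in the same order. The reduced genes outside the muscle group gave 98.9%, 83.7%, 61.2%, 112% and 51.1%, so that CL replicates 3 and 5 were both low there.

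The percentages spread over genes in every CL mouse. The quartiles were 25.6% and 80.2% in CL replicate 5, and 73.8% and 115%, 82.0% and 121%, 73.3% and 119%, and 86.0% and 124% in CL replicates 1 to 4. Of the 191 genes 47 reached under 25% of the response of the other mice, 93 reached 25% to 75%, and 51 reached 75% or more, of which 20 were at or above 100%. The 6 thermogenesis genes among the 191 were split, with *Adcy3* at -35.5%, *Ucp1* at -0.273%, *Gyk* at 5.98%, *Gpr3* at 21.8% and *Elovl3* and *Bmp8b* at 80.7% and 80.7%. *Elovl3* is also 1 of the 5 genes of fatty acid synthesis and elongation, which reached 56.0% (*Thrsp*) to 121% (*Elovl6*). The smallest responses among genes with at least 5 CPM in the other CL mice were those of *G630090E17Rik*, *Adcy3*, *Itih4*, *Nsun3* and *Nnmt*. For *Itih4*, as for *Gpr3* above, the comparison rests on CL replicate 3, at 147 and 9.15 CPM. In both genes CL replicate 5 lay within the range of CL replicates 1, 2 and 4. *Adcy3* had 241, 274, 225 and 331 CPM in CL replicates 1 to 4, 98.9 CPM in CL replicate 5 and 100.5 to 159.6 CPM in saline mice, so that CL replicate 5 was below all of them. *Nsun3*, a mitochondrial RNA methyltransferase, had 14.2, 14.7, 14 and 18.2 CPM in CL replicates 1 to 4 and 6.47 CPM in CL replicate 5, against 6.80 to 9.02 CPM with saline. *Nnmt*, nicotinamide N-methyltransferase, had 28.0, 35.2, 41.0 and 29.3 CPM and 10.5 CPM, against 6.08 to 20.2 CPM with saline. In these 3 genes CL replicate 5 lay within or below the saline range. The largest responses belonged to *Adprhl1*, *Fdps*, *Cldn1*, *Orm3* and *Cspg5*. *Adprhl1* had 15.6, 13.8, 13.7 and 7.78 CPM in CL replicates 1 to 4 and 23.1 CPM in CL replicate 5, and *Cldn1*, the tight junction protein claudin 1, had 21.4, 8.30, 9.98 and 29.3 CPM and 20.8 CPM. *Orm3*, an acute phase gene with close paralogs, had 6.39, 10.4, 10.7 and 7.28 CPM and 10.4 CPM. Without CL replicate 5, 194 genes were induced, 3 of which were not tested with all mice and are not among the 191, and 213 were reduced, among them 147 of the 149 and 162 of the 193 found with all mice. The library of CL replicate 5 had 12025583 counts, within the range of its group, and a muscle level like that of CL replicate 4.

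**Figure D5:**
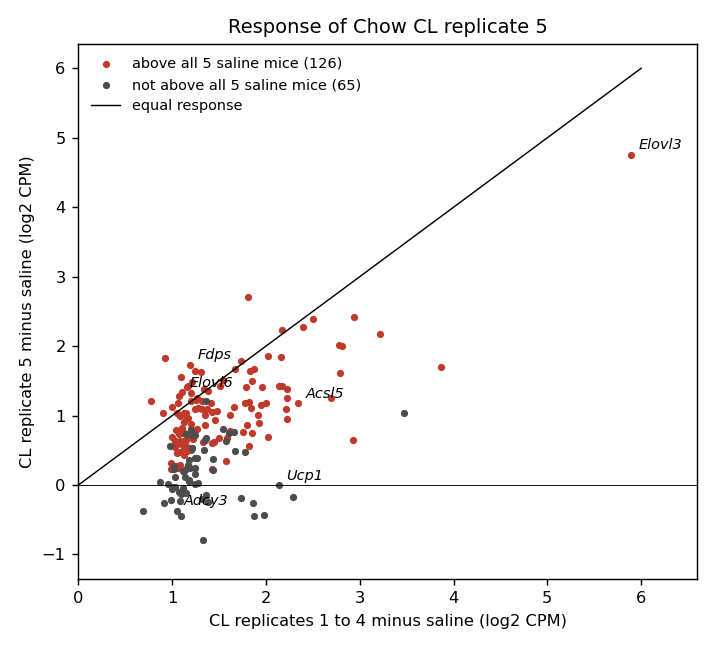
Difference from the saline mean in log2 CPM for 191 genes induced without CL replicate 5, in CL replicate 5 (vertical axis) against the mean of CL replicates 1 to 4 (horizontal axis), with the line of equal response. *Fdps* and *Elovl6* lie above the line, *Ucp1* and *Adcy3* at or below 0.

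On HFD, in 10 other mice with their own saline group, CL induced 273 and reduced 273 genes, each 2.06% of those tested. Of the 149 genes induced on chow 99 (66.4%) were induced on HFD, which is 36.3% of the HFD list, and 144 had a positive log2 fold change there. Of the 108 reduced genes outside the muscle group 43 (39.8%) were reduced on HFD. There 103 of them had a negative log2 fold change, and the median was -0.996, against -1.47 on chow. Of the 85 reduced genes in the muscle group 2 (2.35%) were called reduced on HFD. Yet 83 of them had a negative log2 fold change there, and the median was -1.05, against -3.47 on chow. Over all 13277 tested genes 6783 were negative on HFD. *Myh4* had a log2 fold change of -0.82 on HFD, *Ucp1* of 1.74, *Elovl3* of 5.48, *Gpx3* of -2.19 and *Dio2* of 2.22. A test of the difference in CL effect between diets passed for 2 genes, *Hist1h2be* and *Hcn2*, of which *Hcn2*, a hyperpolarization-activated channel, rose on chow from 1.70 ± 1.20 CPM to 4.14 ± 1.03 CPM (SD, n = 5; log2 fold change 1.24, edgeR adjusted p = 0.00836) and *Hist1h2be*, a histone gene, was 3.14 ± 1.30 CPM in saline and 3.75 ± 0.907 CPM in CL mice (SD, n = 5; log2 fold change 0.26, edgeR adjusted p = 0.547). For both the log2 fold change was higher on HFD, by 2.64 for *Hcn2* and 2.70 for *Hist1h2be* (edgeR adjusted p = 0.0120 and 0.00164). At an unadjusted p under 0.05 the difference passed for 1250 genes. The HFD libraries held 849126 counts (saline replicate 4) to 7284129 counts, all fewer than the chow libraries, so that diet and depth cannot be told apart in this comparison. The summed muscle level on HFD was 1515 to 6281 CPM in saline and 1711 to 3600.2 CPM in CL mice.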

How the data were processed

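Poly(A) RNA of BAT was sequenced from 8 groups of 5 mice. Per the methods, reads were mapped with STAR to mm9, stored with HOMER and summed over exons of RefSeq genes with iRNA-seq, and the authors deposited these raw counts, which were used as deposited. Tool versions and strandedness are not given in the sources used here, so overlapping and antisense genes cannot be separated. Genes were filtered with filterByExpr over all 40 libraries, scaled by TMM and fitted with edgeR 4.0.16 (quasi-likelihood, 1 mean per group, no block, R 4.3.3). DESeq2 1.42.0 was an alternative. Log2 CPM used a prior count of 2. The fit was tested on simulated data. Standard errors were derived from the fold change and the F statistic. Groups come from the labels.

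Members and gene lists were chosen with earlier results of these data known. Named were the 15 most induced and the 15 most reduced genes of at least 2 CPM outside the muscle group, called members of each list (at most 6), 13 genes whether called or not, 6 muscle genes and 10 genes for CL replicate 5, and a few of these are not reported here. Deposited gene lengths were not used.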

Additional observations from a re-analysis of the deposited data

Results flagged for a closer look

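Among 210 groups of 5 mice, 27 had a mouse whose gap to its nearest neighbour exceeded 0.71 of the range of its group. Chance gives about 1 in 20 for independent normal values. The groups are CPM of named genes in the same mice, many chosen for large changes, so that rate need not hold here. Saline replicate 1 accounts for 9 of them and CL replicates 3 and 5 for 5 each.

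Saline replicate 1 was highest in its group for *Hspa1a* at 32.0 CPM and *Hspa1b* at 35.1 CPM, for *Atf3* at 24.7 CPM, *Irs2* at 257 CPM, *Nfe2l3* at 21.8 CPM and *Dio2* at 85.4 CPM. It was also highest for *Gyk* at 62.4 CPM and for the muscle genes *Ppp1r3a* at 15.8 CPM and *Sln* at 5.30 CPM. These genes include stress, insulin signalling and cAMP-responsive genes together with muscle genes.

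CL replicate 3 stood above its group for *Gpr3* at 9.15 CPM, *Itih4* at 147 CPM, *Wfdc21* at 10.5 CPM and *Clu* at 34.3 CPM, and below it for *Cspg5* at 8.96 CPM. CL replicate 5 stood below its group for *Elovl4* at 1.99 CPM, *Acsl5* at 419 CPM and *Acot11* at 559 CPM, and above it for *Egr3* at 8.89 CPM and *Hspa1b* at 5.01 CPM. CL replicate 4 was high for *Slc25a34* at 177 CPM and low for *Gpx3* at 1270.1 CPM. CL replicate 1 was high for *Ppp1r3a* at 1.38 CPM and for *Cdc6*, a replication licensing factor, at 5.11 CPM. Saline replicate 5 was high for *Fam131c* at 2.38 CPM, *Tesc* at 2.72 CPM and *Cspg5* at 10.2 CPM, and saline replicate 2 for *Nnat* at 66.6 CPM.

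The CL effect differed between diets for *Hcn2*, by 2.64 on the log2 scale (edgeR adjusted p = 0.0120), and for *Hist1h2be*, by 2.70 (edgeR adjusted p = 0.00164), both higher on HFD.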

How the results depend on the processing

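Named genes mostly held their direction and their side of the threshold. Of 1924 values of 105 named genes under 19 alternatives, 1705 did, 209 no longer passed the threshold, 5 newly passed it and 5 turned direction. Of the 90 named genes that were called, 36 were called under every alternative that tested them. The values that turned were log2 fold changes of -0.56 for *Itih4* without CL replicate 3 (-0.56 to 3.38 over the fits that left out 1 mouse), 0.21 for *Hspa1a* without saline replicate 1 (-2.51 to 0.21), 1.84e-04 for *Lipe* without saline replicate 4 (-0.11 to 1.84e-04), -0.0078 for *Ppargc1a* with library totals alone and 0.26 for *Myh4* with the muscle covariate, which is computed from the list that holds *Myh4*.

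Induced genes numbered 98 with library totals alone, 78 when at least 10 counts were required in each of the 10 libraries, which tests fewer genes, and 127 to 194 when 1 mouse was left out. Reduced genes numbered 91 with that count minimum, 117 when only the 10 libraries were fitted and 121 to 213 without 1 mouse, lowest without CL replicate 4. The 14 reduced genes that followed the muscle list became 23 at a correlation of 0.7. DESeq2 on all libraries gave 146 induced and 199 reduced genes, and on the 10 libraries 137 and 167. The causes of the other moves were not tested. Counts of list members moved by over 1.5 times in 195 of 1596 cases.

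Replicate numbers are shared by the groups, but same-numbered mice did not deviate together (correlations of 0.24, -0.11, 0.01, -0.11 and -0.20), and 1 of 5 saline mice correlated best with its own number. The fit with a replicate block called 89 induced and 68 reduced genes.

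Depth limits genes of low level. Of the 149 induced genes 36 had under 2 CPM in CL mice.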

Other observations

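Immediate early genes are transcribed within minutes of a stimulus. The list of 34 was chosen after the values of *Nr4a1*, *Egr3* and *Arc* were seen, so its counts are a description. Of 30 tested members 15 fell, none rose and 15 did not pass the test, 26 had a negative log2 fold change, the median was -0.92 and 11 were reduced, against 1.45% of all tested genes. Over the alternatives 3 to 15 were reduced, and 8 were without saline replicate 1, the mouse with the highest *Nr4a1*.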
